A study of Mus musculus with 12 samples.

Results

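The 10 genes of the class I antigen presentation pathway were followed in RNA sequencing libraries of mouse palatal shelves: B2m, H2-K1, H2-D1, Psmb8, Psmb9, Psmb10, Tap1, Tap2, Tapbp and Nlrc5. They were taken by symbol from the deposited gene tables, where all 10 of 10 were found among 56691 genes, and all 10 passed the filter on low counts that left 17335 genes for testing. No cut on a measured value was applied in taking them, but the genes were chosen with earlier results of these data known.

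The palatal shelves are 2 outgrowths of the embryonic upper jaw that meet and fuse into the roof of the mouth, and they were taken at gestational day 12. The 12 libraries form 4 groups of 3. The control group was wild type and untreated, and the untreated knockout group had Dnmt1 deleted conditionally; this enzyme restores DNA methylation after DNA is copied. The AzadC group was wild type and received 5-aza-2'-deoxycytidine, a cytosine analogue that traps DNA methyltransferases, and the vehicle group was wild type and received only the solution in which AzadC was given. Each library pooled 2 embryos of the same genotype and each group covers 6 embryos, as the protocols in the labels state, although the series' design text mentions pools of 3. The Cre driver, deleted exons, mouse strain and AzadC dosing were not given in the sources used here. Because pooled shelves hold several cell types, more cells of a type and more RNA per cell cannot be told apart in these values.

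Class I molecules display peptides from inside the cell to CD8 T cells and natural killer cells. The proteasome cuts proteins into peptides, the Tap1-Tap2 transporter carries them into the endoplasmic reticulum, and tapasin (Tapbp) holds an empty class I molecule next to the transporter until a peptide binds. The class I molecule is a heavy chain, such as H2-K1 or H2-D1, paired with the light chain beta-2-microglobulin (B2m). Psmb8, Psmb9 and Psmb10 are catalytic subunits that interferon induces and that replace the standard subunits Psmb5, Psmb6 and Psmb7 to make the immunoproteasome, and Nlrc5 is the transactivator of class I genes. Embryonic tissue is known for low class I expression, and interferon and DNA methylation are both known to influence these genes.

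In GRCm38 (mm10) with GENCODE M21, 7 of the 10 genes lie on chromosome 17. Psmb9, Tap1, Psmb8 and Tap2 sit next to each other there within 34335 bases (chr17:34181987-34216321), with Tapbp (chr17:33915899-33929292) and H2-K1 (chr17:33996017-34000347, minus strand) on one side and H2-D1 (chr17:35262730-35267499) on the other. B2m is on chromosome 2 (chr2:122147686-122153083), and Nlrc5 (chr8:94434356-94527272) and Psmb10 (chr8:105935735-105938444, minus strand) are on chromosome 8. All 10 are annotated as protein coding. Psmb9 and Tap1 overlap head to head, and Tapbp, Psmb8 and Tap2 overlap antisense genes, and no source used here says whether the counting used strand. The expected counts were whole, within 0.005, in 12 of 12 libraries for Psmb8 and 11 of 12 for Tap2, but in 5 for Psmb9, 5 for Tap1 and 0 for Tapbp, so division of reads between genes showed in the last 3. Counting either strand, Psmb8 shares 11.9% of its 50-base stretches with other genes, Tap2 11.6% and Tapbp 23.2%. For Psmb8, 11.6% are shared with the antisense gene Gm20496.

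Promoter sequences are shown for the 3 genes called higher in the knockout against control, with H2-D1 for comparison, because class I promoters are known to carry interferon-response and CCAAT elements. RefSeq promoters (GRCm38.p6, 250 bases before to 50 bases after the start) were matched for 8 of the 10 genes; Tap2 and Nlrc5 were not matched. Capitals mark motif matches on either strand, and all sequences run 5′ to 3′ on the gene's strand.
B2m, chr2:122147537-122147676, plus strand, 150 to 11 bases before the start: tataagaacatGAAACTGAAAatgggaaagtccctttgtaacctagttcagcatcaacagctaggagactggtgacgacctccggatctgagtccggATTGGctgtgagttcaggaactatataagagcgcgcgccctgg
H2-K1, chr17:34000358-34000497, minus strand, 150 to 11 bases before the start: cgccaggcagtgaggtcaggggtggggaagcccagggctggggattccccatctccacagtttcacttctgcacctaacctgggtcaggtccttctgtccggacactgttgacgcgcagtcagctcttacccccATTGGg
H2-K1, chr17:34000334-34000363, minus strand, across the start: ATTGGgtggcgcgatcaccaagaaCCAATc
H2-D1, chr17:35263018-35263047, plus strand, from 76 bases before the RefSeq start, inside an annotated GENCODE M21 exon: ATTGGgtggcgagattccaggagCCAATca
Psmb8, chr17:34198088-34198117, plus strand, from 107 bases before the RefSeq start, inside an annotated GENCODE M21 exon: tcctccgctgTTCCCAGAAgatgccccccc

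The interferon-stimulated response element was searched only as a pair of GAAA repeats with any 2 bases between them. That exact pattern was in 3.44% of 32851 RefSeq promoters of the same length, and among the matched genes only B2m held it. Variants of the element were not searched, so the other promoters cannot be said to lack one. The gamma-activated site was searched as TTCNNNGAA, present in 8.30% of promoters, and only Psmb8 held it. The CCAAT box (read as ATTGG from the opposite strand) was in 37.4% of promoters and in those of B2m, H2-K1, H2-D1, Psmb9, Tap1 and Tapbp. H2-K1 and H2-D1 each held a CCAAT box on both strands within 30 bases, as their short lines show. The matched promoters held 3 CpG sites (Psmb10) to 19 (H2-D1), against a median of 7 over all promoters. Tap1 and Psmb9 share a stretch of 225 bases between their RefSeq starts with 12 CpG sites. All 225 bases lie inside annotated GENCODE M21 exons. These matches describe letters in a window, and no methylation or binding was measured.

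Library totals ran from 12640536 (AzadC 1) to 33113790 (control 1) expected counts. Dnmt1, measured first as the check of the labels, was 286, 278 and 258 CPM (the gene's counts scaled to a common library size, with TMM factors) in control and 201, 180 and 191 CPM in the knockout, a log2 change of −0.52 (SE 0.07, adjusted p = 0.000369, edgeR quasi-likelihood test with Benjamini-Hochberg adjustment over all genes, as for every adjusted p here). The knockout libraries all lay below the controls, with transcript remaining. In vehicle Dnmt1 was 452, 451 and 448 CPM and in AzadC 408, 482 and 411 CPM. It was thus higher in vehicle than in control (log2 change 0.72, SE 0.07, adjusted p = 0.000286, edgeR), a larger change than that of the knockout. The labels give at least 3 litters per genotype but not which litter each pool came from, so the p-values measure the spread between these pools, which may share litters.

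On the per-length scale (deposited TPM), B2m stood far above the other members, at 171 ± 13.3 TPM in control (SD, n = 3, as for every mean here). Psmb10 followed at 21.2 ± 7.39 TPM, then Tapbp at 11.6 ± 0.883 and H2-D1 at 10.7 ± 6.12 TPM. The other 6 genes had control means from 0.127 (Nlrc5) to 7.46 TPM (H2-K1). The H2-K1 TPM is loosely determined, because the mean transcript length RSEM assigned to it ran from 582 to 1665 bases between libraries, so CPM is used for comparisons of a gene between groups. Nlrc5 had only 2 to 22 expected counts per library.

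In the knockout, the light chain B2m, the heavy chain H2-K1 and the immunoproteasome subunit Psmb8 rose against control, by 1.46-, 2.97- and 2.72-fold. The other 7 genes did not pass the test, and none of the 10 passed as lower (6.43% of all genes did) with edgeR, DESeq2 or limma-voom, or at an unadjusted p below 0.05 (0 of 10). These 3 of 10 calls stand beside 7.83% of all genes tested called higher, and in the same 3 genes every knockout library lay above every control library, beside 16.9% of all genes. The median log2 change of the 10 genes was 0.50, against −0.00 over all genes, and 8 of the 10 had a positive log2 change. Without control 2 only B2m was called, 1 of the 10.

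**Figure D1:**
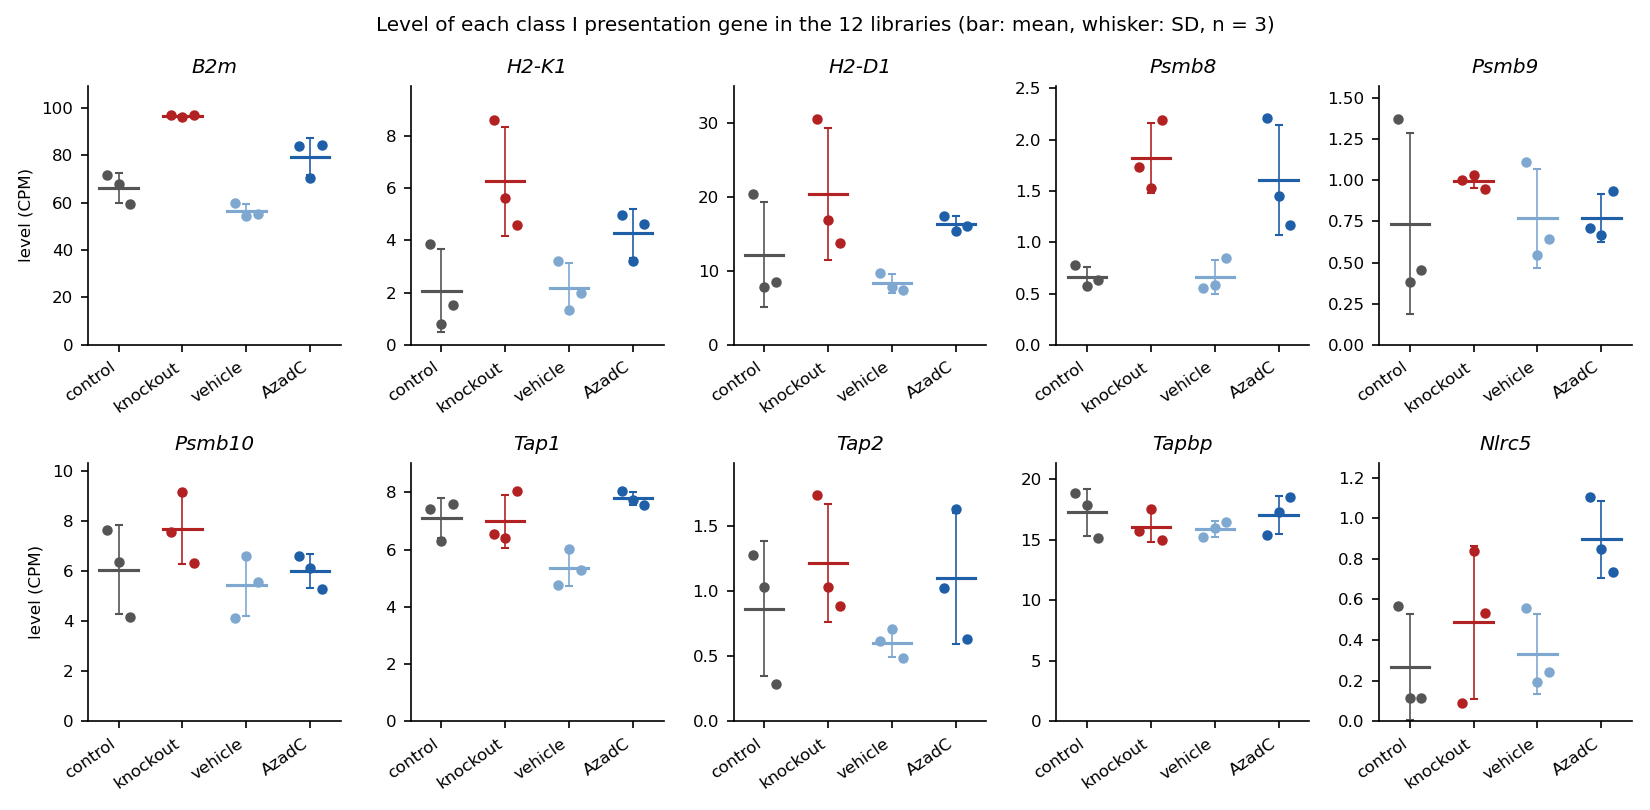
Level of each of the 10 genes in CPM (vertical axis, from 0) in the 12 libraries, by group, with points for libraries, bars for the mean and whiskers for the SD (n = 3). B2m in the knockout sits between 96.3 and 97.1 CPM, above every other library, while Tapbp overlaps between all groups.

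Among the molecules that bind peptide, B2m was 71.5, 68.0 and 59.4 CPM in the control libraries and 96.9, 96.3 and 97.1 CPM in the knockout. The knockout libraries lay together and clear of the controls. The log2 change was 0.54 (SE 0.08, 95% interval 0.363 to 0.723, adjusted p = 0.000839, edgeR). H2-K1 was 3.85, 0.804 and 1.54 CPM in control and 8.59, 5.61 and 4.56 CPM in the knockout. The groups did not overlap, but control 1 stood well above the other controls and knockout 1 above the other knockouts. Its log2 change was 1.57 (SE 0.47, interval 0.55 to 2.59, adjusted p = 0.0416, edgeR). Without control 1 the H2-K1 change was 2.45 (adjusted p = 0.00407). The call was lost in 9 of the alternatives, among them leaving out control 2 (adjusted p = 0.119) or knockout 1 (0.144) and fitting only the 2 groups (0.0854).

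H2-D1, the other classical heavy chain, was 20.4, 7.81 and 8.44 CPM in control and 30.6, 16.9 and 13.8 CPM in the knockout. Here the groups overlapped, because control 1 lay above knockout 2 and knockout 3. The log2 change of 0.73 (SE 0.34, adjusted p = 0.180, edgeR) did not pass. Without control 1 the H2-D1 change was 1.34 (adjusted p = 0.00889) and without knockout 1 it was 0.32 (0.609). With all libraries it was also called with the replicate block (0.0411) and with no filter (0.0246, edgeR). H2-K1 and H2-D1 share 9.63% and 12.8% of their 50-base stretches with other genes, largely other heavy chains, and with the rows of all class I heavy chains summed the log2 change was 0.31 (adjusted p = 0.109). Control 1 was the highest control for 9 of the 10 genes, Tap1 being the exception.

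Together H2-K1 and H2-D1 made up 20.5% ± 9.66 of the summed CPM of 20 class I heavy chain genes in control, 31.3% ± 7.83 in the knockout, 16.5% ± 1.81 in vehicle and 27.7% ± 0.878 in AzadC. H2-T22, a non-classical heavy chain, took 42.6% in control and 31.9% in the knockout. The control and knockout shares overlapped within their spread, and the AzadC shares did not overlap those of vehicle. The ratio of B2m to summed heavy chains in TPM was 2.53 ± 0.362 in control, 2.87 ± 0.729 in the knockout, 2.32 ± 0.138 in vehicle and 2.63 ± 0.166 in AzadC. This sum holds the loosely determined H2-K1 TPM, which was 32.25 in knockout 1 and 7.51 in knockout 3, so the ratio is loosely determined too.

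Of the inducible proteasome subunits, Psmb8 was 0.775, 0.575 and 0.628 CPM in control and 1.74, 1.53 and 2.19 CPM in the knockout. All knockout libraries were higher, at 31 to 38 expected counts against 11 to 26 in control. The log2 change was 1.44 (SE 0.35, interval 0.695 to 2.19, adjusted p = 0.0141, edgeR), and without control 2 the adjusted p was 0.0596. Psmb9 was 1.37, 0.383 and 0.456 CPM in control and 1.0, 1.03 and 0.948 CPM in the knockout, with control 1 above every knockout library (log2 change 0.39, SE 0.48, adjusted p = 0.657, edgeR; 1.25 without control 1, adjusted p = 0.101). Psmb10 was 7.66, 6.36 and 4.16 CPM in control and 7.58, 9.15 and 6.34 CPM in the knockout, with the groups overlapping (0.33, SE 0.24, adjusted p = 0.400, edgeR).

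The standard counterparts did not pass the test in the knockout: the log2 change was 0.07 for Psmb5 (adjusted p = 0.656), 0.07 for Psmb6 (0.603) and 0.11 for Psmb7 (0.296, edgeR). Psmb8 as a share of the summed TPM of Psmb8 and Psmb5 was 0.524% ± 0.0557 in control, 1.44% ± 0.334 in the knockout, 0.469% ± 0.153 in vehicle and 1.33% ± 0.343 in AzadC. The knockout and AzadC shares lay above all control and vehicle shares, and the standard subunit still made up nearly all of the pair. Psmb9 reached 0.177% of its pair with Psmb6 in control and 0.301% in the knockout. Psmb10 was the most abundant inducible subunit, at 6.39% ± 2.17 of its pair with Psmb7 in control and 8.07% ± 1.46 in the knockout, which overlap.

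**Figure D2:**
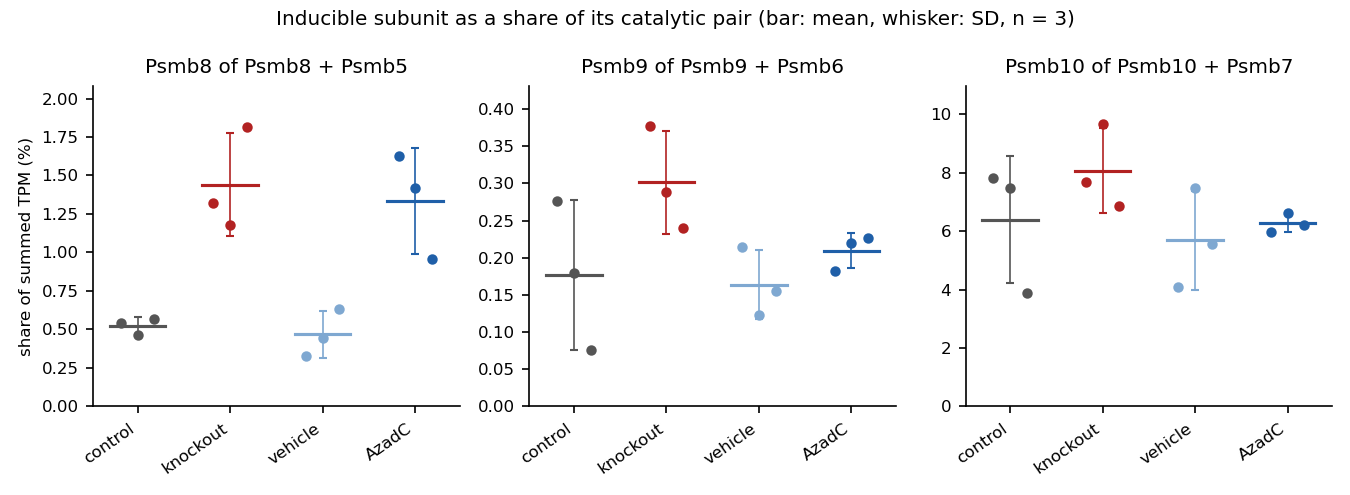
Share of the inducible subunit in the summed TPM of its catalytic pair (vertical axis, percent) by group, with points for libraries, bars for the mean and whiskers for the SD (n = 3). The Psmb8 share averages 1.44% in the knockout and 1.33% in AzadC against 0.524% in control and 0.469% in vehicle, while the shares of Psmb10 overlap.

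The peptide transporter and its partner tapasin did not pass the test in the knockout. Tap1 was 7.42, 6.32 and 7.59 CPM in control and 6.53, 6.40 and 8.06 CPM in the knockout, overlapping throughout, with a log2 change of −0.02 (SE 0.16, interval −0.367 to 0.318). That interval leaves out a rise of the size of B2m. Tap2, the other half-transporter, was 1.28, 1.03 and 0.285 CPM in control and 1.74, 1.03 and 0.889 CPM in the knockout (0.45, SE 0.50). Tapbp was 18.8, 17.9 and 15.1 CPM in control and 15.8, 17.5 and 15.0 CPM in the knockout (−0.11, SE 0.11). The intervals of Tap2 (−0.628 to 1.53) and Nlrc5 (−0.886 to 2.38) are wide, so a difference of the size seen in H2-K1 or Psmb8 was not detectable for Nlrc5 at this depth.

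Nlrc5, the transactivator, was 0.566, 0.115 and 0.114 CPM in control and 0.0914, 0.837 and 0.533 CPM in the knockout. Control 1 and knockout 1 ran against the other libraries of their groups. The log2 change was 0.75 (SE 0.76, adjusted p = 0.580, edgeR), and 2.02 without control 1 (adjusted p = 0.164).

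Against the vehicle group, the same knockout libraries gave 3 of 10 genes called higher, beside 6.7% of all genes, and all 10 had a positive log2 change, with a median of 0.70. All 3 knockout libraries lay above all 3 vehicle libraries for 6 of the 10 genes, beside 16% of all genes. This comparison shares the knockout libraries with the one against control and is no independent repeat of it. B2m was 59.9, 54.3 and 55.3 CPM in vehicle, all below the knockout, with a log2 change of 0.78 (SE 0.08, adjusted p = 5.57e-05, edgeR). H2-D1 was 9.78, 7.81 and 7.38 CPM in vehicle, a close group without a high library, and its log2 change was 1.31 (SE 0.35, adjusted p = 0.0287, edgeR). Psmb8 was 0.557, 0.578 and 0.847 CPM in vehicle, also below every knockout library, with a log2 change of 1.44 (SE 0.35, adjusted p = 0.0177, edgeR).

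H2-K1 was 3.22, 1.35 and 1.98 CPM in vehicle, below each knockout library, and its log2 change of 1.55 (SE 0.48) had an adjusted p of 0.0550 with edgeR and 0.00998 with DESeq2. Tap1 was 4.76, 6.04 and 5.28 CPM in vehicle and Tap2 0.619, 0.707 and 0.484 CPM, both below all knockout libraries, with log2 changes of 0.38 (adjusted p = 0.162) and 1.01 (0.254, edgeR) that did not pass. Without vehicle 2, only B2m of the 10 genes was called (H2-D1 adjusted p = 0.0880, Psmb8 0.0666). Leaving out knockout 1 (0.119) or vehicle 3 (0.111) also ended the H2-D1 call, and leaving out knockout 3 (0.0622) or vehicle 1 (0.0538) the Psmb8 call.

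After AzadC, no gene of the 10 passed the test against vehicle with edgeR or limma-voom, beside 0.0115% of all genes (2 of 17335) called in either direction. With DESeq2 1 of the 10, B2m, was called. At an unadjusted p below 0.05, 4 of the 10 were higher, beside 3.89% of all genes, and 5 of the 10 had all AzadC libraries above all vehicle libraries, beside 6.1% of all genes. All 10 log2 changes were positive, with a median of 0.68 against −0.00 over all genes. In AzadC against control the median was 0.26, with 8 of the 10 positive. In vehicle against control it was −0.14, with 7 of the 10 negative.

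B2m was 83.9, 70.4 and 84.2 CPM in AzadC, each above every vehicle library. The log2 change was 0.49 (SE 0.08, interval 0.313 to 0.676, unadjusted p = 5.15e-05, adjusted p = 0.0979, edgeR; adjusted p = 0.000142, DESeq2). H2-D1 was 17.5, 15.4 and 16.1 CPM, also clear of vehicle, with a log2 change of 0.98 (SE 0.35, adjusted p = 0.649, edgeR). H2-K1 was 4.96, 3.21 and 4.61 CPM, and AzadC 2 lay just below vehicle 1 (0.99, SE 0.48, adjusted p = 0.794, edgeR). Psmb8 was 2.21, 1.45 and 1.17 CPM, all above vehicle, with a log2 change of 1.25 (SE 0.35, adjusted p = 0.482, edgeR).

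Tap1 was 8.04, 7.75 and 7.58 CPM in AzadC, a narrow group above all vehicle libraries (0.53, SE 0.16, adjusted p = 0.549, edgeR). In TPM the same Tap1 means were 4.82 ± 0.601 in AzadC and 4.36 ± 1.05 in vehicle, a log2 ratio of 0.14. Nlrc5 was 1.10, 0.848 and 0.735 CPM in AzadC and 0.557, 0.193 and 0.242 CPM in vehicle, also without overlap (1.49, SE 0.74, adjusted p = 0.805, edgeR), on 14 to 22 counts in AzadC and 6 to 9 in vehicle. Psmb9 (0.06, SE 0.49), Psmb10 (0.12, SE 0.24), Tap2 (0.83, SE 0.53) and Tapbp (0.10, SE 0.12) overlapped vehicle.

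**Figure D3:**
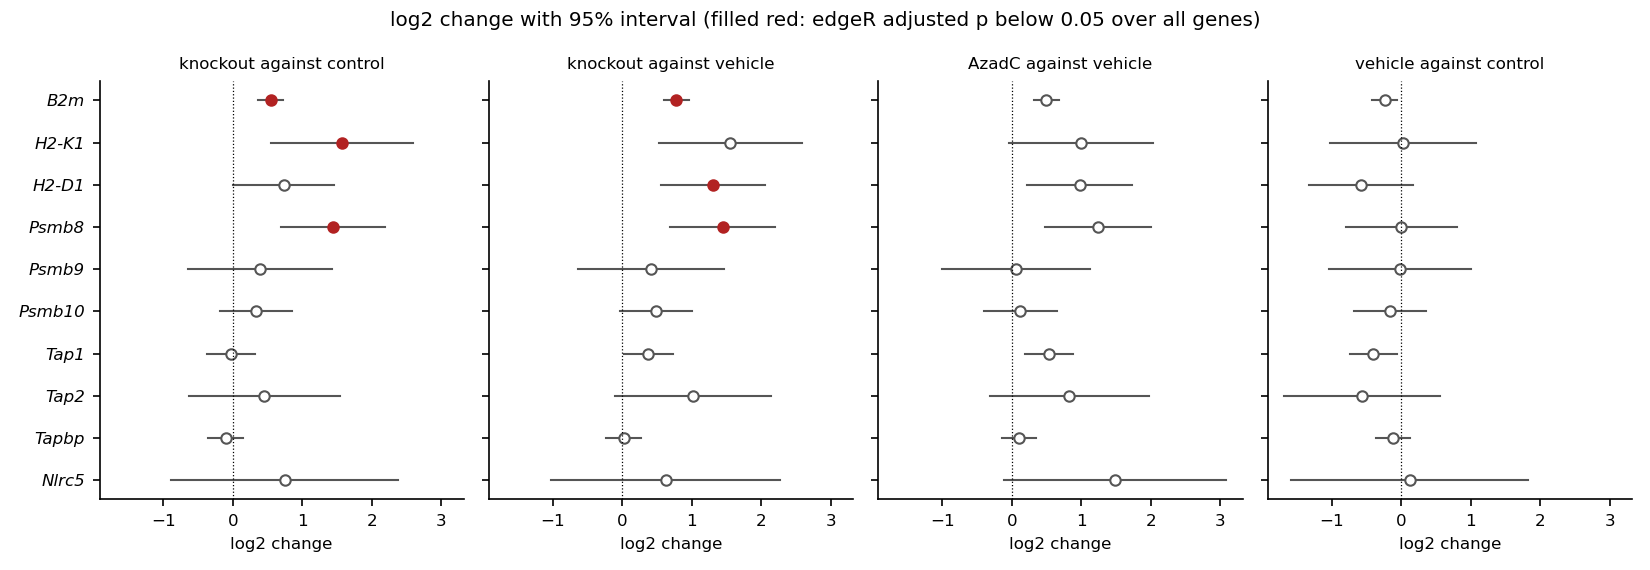
Log2 change of each of the 10 genes with its 95% interval (horizontal axis) in knockout against control, knockout against vehicle, AzadC against vehicle and vehicle against control. B2m lies at 0.54, 0.78 and 0.49 in the first 3 and at −0.23 in the last, and the interval of Nlrc5 is the widest.

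The wild type groups without AzadC differed in Dnmt1, as given above, and in the epithelial keratins Krt5 (log2 change −2.50) and Krt14 (−2.19), both lower in vehicle. Between vehicle and control none of the 10 genes passed with edgeR, DESeq2 or limma-voom, beside 3.52% of all genes called in either direction, and 2 were lower at an unadjusted p below 0.05, beside 10.2% of all genes. These were B2m (log2 change −0.23, adjusted p = 0.143) and Tap1 (−0.40, adjusted p = 0.187, edgeR), both lower in vehicle. Tap1 was the 1 gene of 10 with every vehicle library below every control library, beside 11.5% of all genes. The B2m change of 0.49 in AzadC against vehicle compares with 0.26 (adjusted p = 0.117) in AzadC against control, where none of the 10 genes was called, beside 1.83% of all genes, 3 were higher at an unadjusted p below 0.05, beside 8.48%, and 2 had libraries all above control, beside 10.7%.

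The test of whether the knockout effect (against control) and the AzadC effect (against vehicle) differ called none of the 10 genes with edgeR, DESeq2 or limma-voom, beside 4.4% of all genes, and Tap1 alone had an unadjusted p below 0.05, on the lower side, beside 10% of all genes. For B2m the difference was 0.05 (interval −0.206 to 0.303). For H2-K1 it was 0.58 (−0.868 to 2.02) and for Psmb8 0.20 (−0.866 to 1.26), intervals that allow differences of more than 1 log2 unit. For Tap1 it was −0.56 (SE 0.23, unadjusted p = 0.0282, adjusted p = 0.183), with the AzadC change the higher. Compared directly, Tap1 changed by −0.16 in knockout against AzadC (adjusted p = 0.601, edgeR), with overlapping libraries. It changed by 0.13 in AzadC against control (adjusted p = 0.725, edgeR) and by −0.40 in vehicle against control.

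Ordered by mean CPM, B2m ran knockout, AzadC, control, vehicle, and the step from knockout to AzadC (0.28, SE 0.08) passed the test (adjusted p = 0.0462, edgeR), beside 6.31% of all genes called higher in knockout against AzadC. H2-D1 and Tap2 had the same order, while H2-K1, Psmb8 and Psmb9 ran knockout, AzadC, vehicle, control. Psmb10 was highest in the knockout and Tap1 and Nlrc5 in AzadC. No other step between neighbours in the order of any of the 10 genes passed the test, although the libraries of some neighbours did not overlap, as in AzadC and vehicle for Psmb8, and for Tapbp the whole range of group means was 15.9 to 17.3 CPM.

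Most other pathway genes did not pass the test in the knockout against control. Of 18 other class I pathway genes tested, 3 rose in the knockout against control (Psme3, Canx and Hfe) and 2 fell (Psme2 and Mr1), beside 7.83% and 6.43% of all genes, with a median log2 change of 0.10. Canx, the chaperone calnexin that folds new heavy chains, changed by 0.42 (SE 0.06, adjusted p = 0.000835). Psme3, a proteasome activator subunit outside the interferon-induced pair, changed by 0.27 (adjusted p = 0.00542), and Psme2, a subunit of the interferon-induced activator, by −0.24 (0.036). Mr1, which presents microbial metabolites, changed by −0.73 (0.0372, edgeR). It did not pass against vehicle (−0.03, adjusted p = 0.949), and in vehicle against control it changed by −0.70 (0.0873, edgeR). Against vehicle 9 of the 18 rose, beside 6.7% of all genes, and 1 fell, beside 716 of 17335 genes. Cd81 and Fcgrt, among the 9, were also called lower in vehicle than in control. In vehicle against control the median log2 change of the 18 was −0.16. At an unadjusted p below 0.05 (edgeR), 8 were lower there, beside 10.2% of all genes, and 0 higher. None of 14 core proteasome subunits passed against control or vehicle with edgeR, DESeq2 or limma-voom (1 and 0 at an unadjusted p below 0.05), and of 8 other heavy chains tested (of 18 in the files) H2-T23 rose against vehicle and none passed against control (1 with DESeq2, 1 with limma-voom, 1 at an unadjusted p below 0.05).

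Of 22 transcription regulators of class I genes, Irf8 rose from 1.65 to 6.75 CPM against control (log2 change 2.02, SE 0.27, adjusted p = 0.000311) and Rfxap, a subunit of the RFX complex, fell by 0.47 (adjusted p = 0.00441, edgeR). Irf8 is an interferon regulatory factor of myeloid cells. Of 12 interferon receptors and kinases, Ptpn6 rose (0.80, adjusted p = 0.0258) and Jak2 fell by 0.62 (0.00757, edgeR) against control. Against vehicle Ptpn6 (0.56, adjusted p = 0.122) and Jak2 (−0.09, 0.733, edgeR) did not pass, and Ifnar2 rose. Jak2 was also lower in vehicle than in control (−0.53, adjusted p = 0.0454, edgeR).

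Other gene groups moved beside these genes. Of 20 macrophage markers, 19 rose in the knockout against control (median log2 change 2.04) and the same number against vehicle, and in AzadC against vehicle none was called with edgeR or limma-voom, 5 with DESeq2 and 14 at an unadjusted p below 0.05 (median 0.58). Their summed level was 104 to 149 CPM in control, 492 to 517 in the knockout, 133 to 169 in vehicle and 215 to 232 in AzadC, with no marker at 0. Csf1r, the receptor of the macrophage growth factor, rose by 2.35 and Adgre1 by 2.46. Macrophages are known for high class I expression, and the part of these cells in the rise of B2m, H2-K1 and Psmb8 was not tested.

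Class II genes, which mark professional antigen-presenting cells, were low, at a summed 6.68 to 8.76 CPM in control and 8.09 to 13.1 in the knockout over 11 genes. Of the 7 tested, only Cd74, the invariant chain, rose (0.566 to 3.90 CPM, log2 change 2.79, adjusted p = 0.00931, edgeR). Of 14 lymphocyte markers 3 could be tested and Cd79b rose, and Cd3e, Ms4a1, Ncr1 and Gzma were at 0 in all 4 groups. Of 12 endothelial markers, Cldn5 and Erg fell against control with edgeR, beside 6.43% of all genes. None of the 12 rose against control with edgeR, DESeq2 or limma-voom, or at an unadjusted p below 0.05. Against vehicle Erg fell (log2 change −1.10, adjusted p = 0.00245) and Cldn5 did not pass (−0.40, 0.103, edgeR). In vehicle against control Erg changed by −0.68 (adjusted p = 0.0579) and Cldn5 by −0.40 (0.146, edgeR). Of 12 skeletal muscle markers 9 rose against control with edgeR, beside 7.83% of all genes, 7 with DESeq2 and 4 with limma-voom. Against vehicle none was called with these tools, and 5 were higher at an unadjusted p below 0.05 (median log2 change 1.64). In vehicle against control the median was 1.53, with none called. The muscle sum was 741, 392 and 137 CPM in the knockout and 81.2, 40.2 and 7.25 CPM in control. It was highest in knockout 1 and control 1, which also had the highest H2-K1 and H2-D1 of their groups. In the other groups the orders differed: the muscle sum was highest in vehicle 2 (294 CPM) and AzadC 3 (123 CPM), and H2-K1 and H2-D1 in vehicle 1 and AzadC 1. The part of this difference in the class I values was not tested.

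Of 12 palatal mesenchyme markers, the cells that make up most of the shelves, Pdgfra (log2 change −0.50), Twist1 (−0.76) and Meox2 (−0.98) fell in the knockout against control and none rose. Against vehicle Pdgfra and Twist1 fell, Col1a1 rose and Meox2 did not pass (−0.34, adjusted p = 0.297, edgeR). The median of the 12 was −0.25 against control and 0.51 against vehicle. Their summed level was 2306 to 2844 CPM in control, 1831 to 2314 in the knockout, 1578 to 2173 in vehicle and 2056 to 2174 in AzadC. Of 12 Schwann and neuronal markers, Tubb3 rose (1.01, adjusted p = 0.0121, edgeR). Their part in the class I values was not tested.

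Interferon-stimulated genes stood highest in AzadC, not in the knockout. Their summed level over 30 genes was 97.5 to 150 CPM in control, 129 to 133 in the knockout, 102 to 189 in vehicle and 232 to 261 in AzadC. The knockout libraries lay within the control range, and the AzadC libraries lay above all others. Of 28 tested, 3 rose in the knockout against control (Ifit3b, Oas2 and Gbp2), beside 7.83% of all genes. Ifih1 fell, beside 6.43% of all genes. Against vehicle Gbp2 rose (log2 change 3.42, adjusted p = 0.00325) and Ifih1 fell (−0.94, 0.0398, edgeR). Oas2 (1.03, adjusted p = 0.250, edgeR) and Ifit3b (−0.52) did not pass against vehicle. Ifit3b was higher in vehicle than in control (3.05, adjusted p = 0.0389, edgeR). In AzadC against vehicle none of the 28 was called with edgeR or limma-voom, and 7 were with DESeq2. At an unadjusted p below 0.05, 19 were higher, beside 3.89% of all genes (median log2 change 1.28). The part of interferon-stimulated expression in the AzadC values of the 10 genes was not tested.

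**Figure D4:**
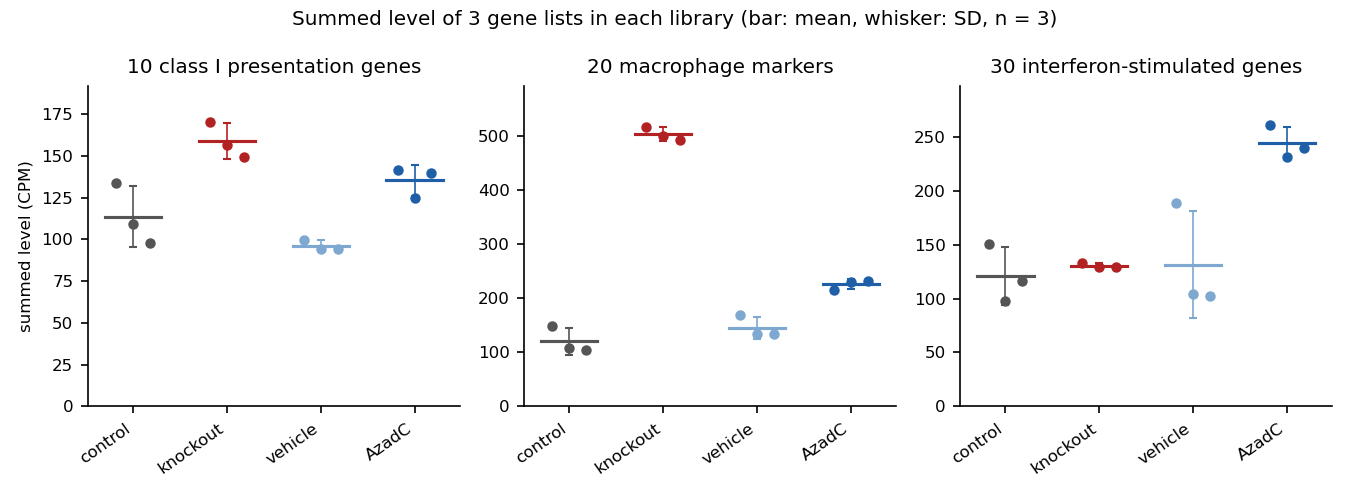
Summed CPM (vertical axis, from 0) of the 10 class I genes, 20 macrophage markers and 30 interferon-stimulated genes in each library by group, with points for libraries, bars for the mean and whiskers for the SD (n = 3). The class I sum is 149 to 171 CPM in the knockout and 125 to 141 in AzadC, against 97.8 to 134 in control and 94.1 to 99.9 in vehicle, while macrophage markers stand highest in the knockout and interferon-stimulated genes in AzadC.

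Averaged over the 10 genes, the centred log2 level was 0.383, 0.426 and 0.289 in the knockout, 0.399, 0.257 and 0.197 in AzadC, −0.214, −0.463 and −0.411 in vehicle and 0.290, −0.523 and −0.630 in control. Control 1 lay with the knockout and AzadC libraries. Of 13219 other genes with a mean above 1 CPM, the 5 whose log2 CPM ran most like this average over the 12 libraries were Lgals3bp (Pearson r 0.936), Ccl9 (0.935), Gadd45b (0.923), Lgals3 (0.904) and Siglec1 (0.904). Siglec1, a macrophage lectin, was 0.452 ± 0.318 CPM in control, 4.27 ± 0.635 in the knockout, 0.468 ± 0.375 in vehicle and 3.82 ± 1.01 in AzadC. Within the 10 genes, H2-K1 and H2-D1 ran most alike (r 0.89), followed by B2m and Psmb8 (r 0.84), while Tapbp had r from −0.16 to 0.40 with the other 9. These correlations describe 12 libraries that share depth and group differences.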

How the data were processed

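The authors deposited expected counts and TPM per gene (RSEM output, per the file headers). Per the submitters' processing notes, the tools include STAR 2.7.0 and RSEM 1.3.1, with Trim Galore, FastQC and DESeq2, on build mm10. RSEM divides reads that fit several genes, which shows as fractional counts for Tapbp, Psmb9, Tap1 and H2-D1. Rounded counts went into edgeR 4.0.16 (R 4.3.3): filterByExpr by group (17335 genes), TMM (factors 0.985 to 1.01), 1 mean per group over all 12 libraries, glmQLFTest, and Benjamini-Hochberg adjustment over every gene tested, with 0.05 as the threshold. SE is the absolute log2 change over the square root of F. CPM is TMM-scaled; the deposited TPM served for comparisons between genes. No replicate pair agreed within sampling noise, so each library is 1 replicate. The alternatives were DESeq2 1.42.0, limma-voom (limma 3.58.1), RLE and upper-quartile scaling, filters, only the groups compared, a replicate block, heavy chain rows summed, and leaving out each library. The edgeR fit was tested on simulated data, for knockout against control only, with the same spread set for every gene. The genes and lists were chosen with earlier results of these data known. Named by rule are the 10 genes, Dnmt1, the standard subunits, up to 4 genes per list by adjusted p, and the 5 genes with the most similar pattern; others are named because a count refers to them, chosen after their values were seen.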

Additional observations from a re-analysis of the deposited data

How the results depend on the processing

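B2m kept its call in the knockout against control and against vehicle under all alternatives run, with adjusted p from 1.28e-07 to 0.00479 and from 3.34e-15 to 0.000758. The count of genes called higher in the knockout against control was 1 without control 2, and against vehicle 1 without vehicle 2, so these counts ran from 1 to 4 and from 1 to 4 over the left-out libraries. In AzadC against vehicle it was 1 with DESeq2 and 2 (B2m, adjusted p = 0.000724, and H2-D1, 0.0262) with no filter on low counts, where all genes called went from 2 to 89 and 119, and to 15 without vehicle 1. The cause was not tested. Whether replicate numbers mark a pairing was not settled: same-numbered libraries correlated from −0.18 to 0.28 and 7 of 12 correlated best with a library of their own number. With the replicate number as a block, H2-D1 was called against control (adjusted p = 0.0411) and H2-K1 against vehicle (0.0103). H2-D1 was also called against control with no filter (0.0246). No called value changed direction. Among values that did not pass, the log2 change in vehicle against control became −0.088 for H2-K1 with heavy chains summed, −0.0013 (no filter), −0.0026 (mean above 1 CPM), −0.022 (limma-voom) and −0.0011 (DESeq2) for Psmb8, and 0.091 (block) and 0.018 (limma-voom) for Psmb9, and the H2-D1 difference of effects became 0.069 with heavy chains summed. Leaving out single libraries moved across 0 the changes against control of Tap1 (−0.14 to 0.036), against vehicle of Tapbp (−0.048 to 0.065) and Nlrc5 (−0.064 to 1.15), and after AzadC of Psmb9 (−0.14 to 0.40) and Psmb10 (−0.018 to 0.29). In vehicle against control it did so for H2-K1 (−0.36 to 0.89), H2-D1 (−0.82 to 0.023), Psmb8 (−0.22 to 0.14), Psmb9 (−0.35 to 0.83), Psmb10 (−0.35 to 0.044) and Nlrc5 (−0.40 to 1.39). In the difference of effects it did so for B2m (−0.031 to 0.10), H2-D1 (−0.67 to 0.35), Psmb8 (−0.022 to 0.47), Psmb9 (−0.0063 to 1.18), Tap2 (−0.75 to 0.047) and Nlrc5 (−1.42 to 0.53). Depth limits Nlrc5, Tap2, Psmb8 and Psmb9 most.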
